A study of Mus musculus with 6 samples.

Results

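The amino acid and peptide solute carriers are membrane proteins that move amino acids, short peptides and related small molecules (creatine, taurine, neurotransmitters) across cell membranes. They were taken from a table of read counts of mouse small intestine as every gene whose symbol belongs to solute carrier family 1, 3, 6, 7, 15, 36, 38 or 43 and whose 6 counts sum to 60 or more. The rule gave 57 of 33017 genes, out of 72 symbols that match it, and used no difference between groups. Messenger RNA had been sequenced from 3 libraries labelled model and 3 labelled control. The series is titled as a study of protection against simulated microgravity combined with radiation and its design text names 2 combined factors, so the comparison asks what differed in the intestine of the model group. The labels give no strain, sex, age, dose, time or segment of the intestine for either group, and do not say how the model was made or whether each library is 1 animal. No library analysed here carries a treatment label. All p-values thus rest on the spread among 3 libraries a group, part of which may be technical.

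Dietary protein reaches the enterocyte, the absorptive cell of the gut lining, as short peptides and free amino acids. Peptides enter through the proton-coupled carrier PEPT1 (Slc15a1), while free amino acids enter through a set of carriers of the brush border, each with its own group of substrates, among them B0AT1 (Slc6a19) for neutral amino acids and the pair rBAT and b0,+AT (Slc3a1 and Slc7a9) for cystine and cationic amino acids. They leave through the opposite, basolateral membrane, partly through exchangers built from the heavy chain 4F2hc (Slc3a2) and a light chain of family 7. Other carriers sit in lysosomes or serve neurons, glia and immune cells.

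None of these genes passed the test between model and control. Levels are given as CPM (a gene's reads scaled by the library total after TMM) with mean ± SD over 3 libraries per group, and log2 fold changes are those of model over control from edgeR's quasi-likelihood test with their standard error (SE). Of the 57 carriers, 55 had enough counts to be tested, 0 of them had a Benjamini-Hochberg adjusted p under 0.05 over all 15904 genes tested (background 0% of genes), and the smallest adjusted p was 0.851. At an unadjusted p under 0.05 stood 5 carriers, 9.09% of those tested, against a background of 4.81% of all genes: Slc38a8, Slc6a19, Slc6a20b and Slc3a2 with higher values in the model libraries (background 1.82%) and Slc6a17 with lower ones (2.99%). The groups did not overlap for 5 tested carriers (9.09%), against a background of 11.1% of all genes. Of these, 4 were higher in the model group (background 4.73%) and 1 was lower (6.33%), so the count is near the background. Overlap here and below is judged on TMM-scaled values, with factors from 0.826 in model 1 to 1.17 in control 3. With DESeq2 as an alternative 0 carriers were called (background 0.158% of genes), and the smallest adjusted p was 0.0741 for Slc38a8, followed by 0.195 for Slc6a19. At an unadjusted p under 0.05 DESeq2 had 7 carriers (13.0%), against 1031 of 15904 genes. With limma-voom 0 were called, and 4 stood at an unadjusted p under 0.05 (7.27%, background 4.12%).

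Several libraries stood apart from the rest and touch many of the values below. Model 1 was the highest or lowest library for 59.4% of all genes tested and control 3 for 54.3%. The share was 24.8% for model 3, 22.1% for control 2, 20.2% for model 2 and 19.2% for control 1. Model 3 thus stood apart by the transcripts named below and not by this share. Control 3 had the markers of the distal small intestine: Fabp6, the ileal bile acid binding protein, was at 1166 CPM there and at most 0.285 CPM elsewhere, and the bile acid carrier gene Slc10a2 at 648 CPM against 1.11 to 4.60 CPM. The proximal factor Gata4 was at 1.90 CPM in control 3 and at 214 to 255 CPM in the other 5 libraries, and Onecut2 at 1.19 CPM against 203 to 331 CPM. Over the whole list of 8 distal markers the summed level was 155 to 284 CPM in the model libraries, 2830 CPM in control 3 and 193 and 202 CPM in the other controls, with Fgf15 at or near 0 in every library. Over the 8 proximal markers it was 2350 to 3536 CPM in the model libraries, 334 CPM in control 3 and 3164 and 3447 CPM in the other controls. Model 3 held pancreas acinar transcripts, 7962 CPM in sum over 12 genes against 374 CPM or less in the other 5 libraries. Both also held B cell transcripts, with a sum over 8 markers of 171 CPM in model 3 and 280 CPM in control 3 against 12.8 to 40.8 CPM elsewhere, although their defining marker Ms4a1 is listed at 0 in every library. The epithelial markers were high in all 6 libraries (summed level 13961 to 19112 CPM in model and 15053 to 16142 CPM in control libraries), although Elf3 and the enterocyte gene Fabp2 are listed at 0 throughout. Summed over 10 enterocyte markers the level was 36301, 21008 and 29932 CPM in model 1, 2 and 3 and 23846, 22339 and 9448 CPM in control 1, 2 and 3. In whole tissue, fewer cells of a type and less RNA per cell cannot be told apart. Library totals ran from 35007515 to 45285564 counts.

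The carriers together took 0.369%, 0.411% and 0.498% of the counts of model 1, 2 and 3, against 0.445%, 0.344% and 0.428% in control 1, 2 and 3. Their summed level was 4473, 4065 and 5133 CPM in the model libraries and 4202, 3460 and 3676 CPM in the control libraries, so the groups overlapped through model 2 and control 1. A few genes made up most of it: the 10 most abundant held 71.2% to 81.2% of the sum in each library. By their mean over all libraries 13 carriers were at 100 CPM or more, 17 between 10 and 100, 15 between 1 and 10 and 12 under 1 CPM. Per kilobase of exon, the creatine carrier gene Slc6a8 stood first, at 181 CPM per kilobase in model and 145 in control tissue, followed by Slc6a19 at 160 and 85.8, Slc7a9 at 107 and 117, and Slc3a1 at 71.3 and 80.9. In that order Slc3a1, Slc3a2, Slc15a1 and Slc7a7 did not differ beyond their spread over libraries, with means over both groups of 76.1, 75.8, 73.5 and 70.0 CPM per kilobase.

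**Figure D1:**
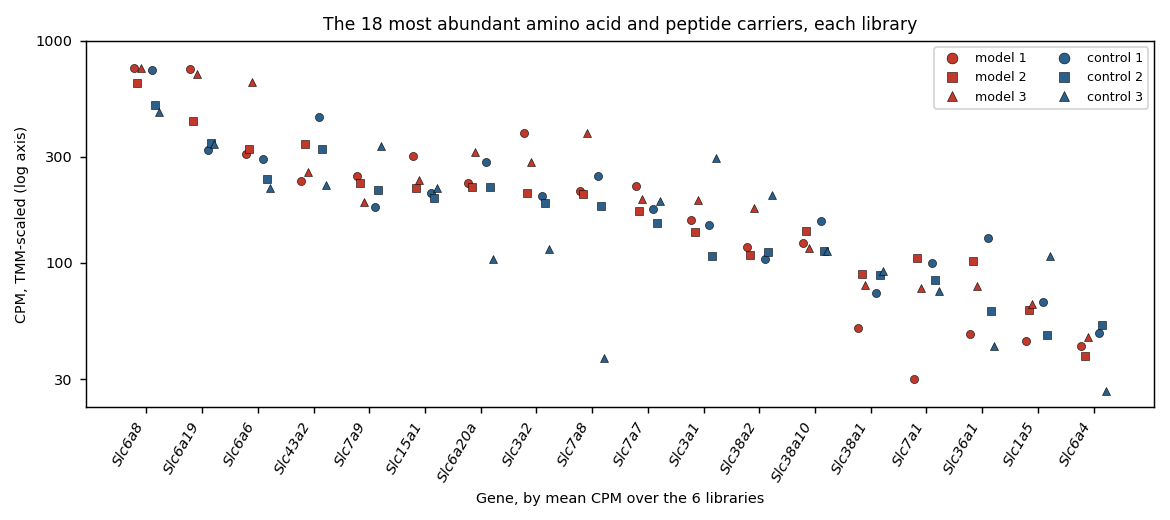
Level of the 18 most abundant carriers in each library (CPM, log axis; 1 point per library, model in red to the left of control in blue, shape gives the library number). Slc6a19 sits at 436 to 744 CPM in the model libraries, all above its control libraries, while control 3 lies far below the others for Slc7a8 and Slc6a20a and above them for Slc3a1.

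Among carriers of the brush border, the gene of B0AT1 had the smallest p and the second highest level per length after Slc6a8. Slc6a19, which encodes this sodium-coupled carrier of neutral amino acids, measured 744, 436 and 711 CPM in model 1, 2 and 3 and 323, 346 and 344 CPM in control 1, 2 and 3. Each model library lay above each control library, with model 2 nearest to them. The enterocyte markers given above were likewise highest in model 1 and model 3, and their part in this value was not tested. The means were 630 ± 169 CPM in model and 338 ± 12.9 CPM in control tissue, a log2 fold change of 0.90 (SE 0.27, edgeR adjusted p = 0.851). Control 3, with its distal markers, lay between both other controls for this gene, and the log2 fold change was 0.93 (SE 0.31) without it and 0.81 without control 3 and model 3. Without model 1, where the gene was highest, it was 0.76. It kept its sign under all the scalings, filters and left-out libraries tried, between 0.68 with library size alone and 1.11 without model 2. The antisense gene Slc6a19os, which the naming rule also takes in, had 0.513 to 0.969 CPM in model and 0.214 to 0.667 CPM in control libraries. Without a stated strand setting its reads cannot be told apart from those of Slc6a19.

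PEPT1, the carrier of di- and tripeptides, differed less between the groups. Slc15a1 measured 303, 218 and 237 CPM in the model libraries and 206, 195 and 218 CPM in the control libraries. Model 1 was the highest, model 3 lay somewhat above the controls, and model 2 and control 3 were level with each other. Its log2 fold change was 0.29 (SE 0.21). Set against B0AT1 in the same library, its level per length was 0.514, 0.630 and 0.420 of that of Slc6a19 in model 1, 2 and 3 and 0.806, 0.710 and 0.797 in control 1, 2 and 3. These ratios did not overlap between groups, but neither did Slc6a19 alone, so they are no second observation. The ratio of Slc6a19 to Slc6a20a per length overlapped, at 2.06 to 3.38 in model and 1.18 to 3.43 in control libraries. The ratios were not tested.

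Because Slc6a19 had the smallest p among carriers at 100 CPM or more, the 250 bases before its start are given here from RefSeq (GRCm38.p6, a build other than that of the counts, chr13:73692637-73692886, minus strand), 5′ to 3′ on the gene's strand. Capitals in this and the later sequences mark matches on either strand to AGATAA (the motif of GATA factors), CAAAGTCCA (HNF4) or TGATGNAA (ATF4). No match is in this window.
Slc6a19: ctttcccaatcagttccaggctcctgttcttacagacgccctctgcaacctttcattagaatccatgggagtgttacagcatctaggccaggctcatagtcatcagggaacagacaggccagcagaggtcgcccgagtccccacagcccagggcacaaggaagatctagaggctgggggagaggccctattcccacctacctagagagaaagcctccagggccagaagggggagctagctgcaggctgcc

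The genes of the cystine carrier, a pair of proteins, were both highest in control 3 but had different orders among the other libraries. Slc7a9, the light chain b0,+AT, measured 247, 229 and 188 CPM in model 1, 2 and 3 and 179, 214 and 335 CPM in control 1, 2 and 3. Slc3a1, the heavy chain rBAT, measured 157, 137 and 192 CPM in the model and 148, 107 and 296 CPM in the control libraries. The groups overlapped for both, and control 3, the library with distal markers, stood well above the rest. Their log2 fold changes were -0.13 (SE 0.28) for Slc7a9 and -0.18 (SE 0.38) for Slc3a1, and without control 3 they were 0.19 (SE 0.24) and 0.36 (SE 0.25), so that library set the sign. The part of the intestinal segment in these values was not tested. Per length, Slc3a1 was at 0.580, 0.548 and 0.934 of the level of Slc7a9 in the model libraries and at 0.754, 0.458 and 0.807 in the control libraries.

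Because both genes were highest in the same library, the 250 bases before their starts are shown side by side (GRCm38.p6, chr17:85028097-85028346, plus strand for Slc3a1 and chr7:35448842-35449091, plus strand for the first of 2 windows listed for Slc7a9). Counted from 1 at the 5′ end of each window, Slc3a1 has a GATA match at position 132 and an HNF4 match at position 212, and Slc7a9 has GATA matches at positions 46 and 85, the second on the other strand.
Slc3a1: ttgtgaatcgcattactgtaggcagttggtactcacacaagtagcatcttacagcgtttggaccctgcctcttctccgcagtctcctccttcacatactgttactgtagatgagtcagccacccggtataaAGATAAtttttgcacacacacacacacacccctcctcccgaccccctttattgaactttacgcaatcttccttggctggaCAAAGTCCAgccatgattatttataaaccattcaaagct
Slc7a9: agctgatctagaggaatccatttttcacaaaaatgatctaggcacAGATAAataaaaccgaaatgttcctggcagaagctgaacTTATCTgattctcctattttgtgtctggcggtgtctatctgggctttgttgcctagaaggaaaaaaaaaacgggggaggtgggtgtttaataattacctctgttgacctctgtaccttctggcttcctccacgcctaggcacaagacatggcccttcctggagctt
Over all 32851 windows of this length in the table the GATA letters occur in 9.99%, the HNF4 letters in 0.384% and the ATF4 letters in 3.45%. For the 43 carriers with a window in the table (59 windows) they occur in 8.47%, 1.69% and 5.08%. Such a match describes letters and not a bound site.

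The reads of 1 carrier gene came almost wholly from control 3. It encodes ATB0,+, a sodium- and chloride-coupled carrier of neutral and cationic amino acids. Slc6a14 had 0 counts in all 3 model libraries and 2, 4 and 4188 counts in control 1, 2 and 3, which is 99.5 CPM in control 3 and at most 0.107 CPM elsewhere. It was not tested, since a single library held its reads. A count of 0 allows up to 3 counts, or 0.104, 0.0680 and 0.0855 CPM in model 1, 2 and 3, a limit that covers counting error only. Its upstream window is printed because it belongs to the carrier with the sharpest difference between libraries (GRCm38.p6, chrX:21714650-21714899, plus strand), and it holds none of the motifs searched.
Slc6a14: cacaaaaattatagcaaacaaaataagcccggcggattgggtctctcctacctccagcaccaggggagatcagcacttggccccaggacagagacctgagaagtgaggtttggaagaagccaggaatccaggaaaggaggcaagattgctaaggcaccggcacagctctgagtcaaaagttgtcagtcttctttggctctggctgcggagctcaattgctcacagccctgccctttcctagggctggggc

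Other brush border carriers followed control 3 in either direction. Slc1a1, the glutamate and aspartate carrier EAAC1, measured 1.97, 3.88 and 2.19 CPM in the model and 5.03, 2.51 and 17.6 CPM in the control libraries. Its log2 fold change of -1.64 (SE 0.71) was -0.47 (SE 0.48) without control 3. Slc1a5, the glutamine carrier ASCT2, measured 44.5, 61.5 and 65.6 CPM in the model and 66.3, 47.3 and 107 CPM in the control libraries. Slc6a20a, the imino acid carrier SIT1 that takes up proline, went the other way, with 229, 219 and 317 CPM in the model and 285, 221 and 104 CPM in the control libraries. Here control 3 was the lowest, and the log2 fold change of 0.33 (SE 0.38) was 0.03 (SE 0.26) without it. The proton-coupled carrier of small amino acids PAT1, Slc36a1, varied more than 2-fold within each group, with 47.9 to 101 CPM in model and 42.1 to 130 CPM in control libraries.

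Model 3, the library with pancreas transcripts, set apart a further group. Slc6a6, the taurine carrier, measured 308, 324 and 650 CPM in model 1, 2 and 3 and 293, 238 and 217 CPM in control 1, 2 and 3. The groups did not overlap, but model 1 and model 2 lay close to control 1. Scaled by library total alone, without TMM, model 1 lay below control 1. The log2 fold change was 0.78 (SE 0.34) with all libraries, 0.70 (SE 0.38) without control 3 and 0.25 without control 3 and model 3. Slc6a20b, a close relative and neighbour of Slc6a20a whose reads may be shared with it, measured 6.51, 4.20 and 23.5 CPM in the model and 4.94, 2.27 and 2.30 CPM in the control libraries. Its log2 fold change of 1.84 (SE 0.69) was 0.56 without control 3 and model 3. Slc6a18, the relative of B0AT1 best known from kidney, was at 9.35 CPM in model 3 and 5.37 CPM in control 3 and at 1.32 CPM or less elsewhere. The part of pancreas or B cell RNA in these values was not tested. Slc6a8, the creatine carrier and the most abundant of all per length, was more even, with 753, 642 and 754 CPM in the model and 738, 512 and 476 CPM in the control libraries (log2 fold change 0.32, SE 0.26).

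Of the 14 carriers listed for uptake at the brush border, 13 were tested and 0 passed. Their median log2 fold change was 0.29, with 7 higher, against a median of -0.02 over all genes, of which 48.2% were higher. Without control 3 the median was 0.35, with 11 of 13 higher, against a median of 0.02 over all genes and 53.1% higher. Without control 3 and model 3 it was 0.20, with 8 of 13 higher.

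Among carriers of the basolateral membrane, the shared heavy chain had the smallest p. Slc3a2, which encodes 4F2hc, measured 382, 207 and 285 CPM in model 1, 2 and 3 and 200, 186 and 115 CPM in control 1, 2 and 3. The groups did not overlap, though model 2 lay only just above control 1. Scaled by library total alone, without TMM, model 2 lay just below control 1. Means were 291 ± 88.1 CPM in model and 167 ± 45.4 CPM in control tissue, a log2 fold change of 0.80 (SE 0.32, edgeR adjusted p = 0.851). It was 0.61 (SE 0.30) without control 3, where this gene was lowest, and 0.55 without model 1, where it was highest. It kept its sign in all alternatives run. The window before its start (GRCm38.p6, chr19:8713898-8714147, minus strand), shown because 4F2hc is the partner of all light chains below, holds none of the motifs searched.
Slc3a2: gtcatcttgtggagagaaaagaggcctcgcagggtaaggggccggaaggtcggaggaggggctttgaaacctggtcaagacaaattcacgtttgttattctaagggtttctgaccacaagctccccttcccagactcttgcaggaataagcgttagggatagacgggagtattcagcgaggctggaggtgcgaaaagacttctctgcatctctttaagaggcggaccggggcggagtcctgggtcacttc

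The fold changes of the 4 light chains on the basolateral list were above 0, as they were without control 3, and none passed the test. Slc7a11, another light chain of 4F2hc that is described further below, had -0.68 (SE 1.01), and 0.90 (SE 0.86) without control 3. Slc7a7, the light chain y+LAT1 for cationic amino acids, measured 222, 171 and 194 CPM in the model and 176, 152 and 190 CPM in the control libraries, a log2 fold change of 0.18 (SE 0.20). Slc7a8, the light chain LAT2 for neutral amino acids, measured 211, 204 and 385 CPM in the model and 246, 181 and 37.5 CPM in the control libraries. Its extremes were model 3 and control 3, and its log2 fold change of 0.79 (SE 0.62) was 0.34 (SE 0.34) without control 3 and -0.04 without both. LAT1 (Slc7a5), used by dividing cells, was at 10.1 to 29.6 CPM in model and 13.3 to 24.2 CPM in control libraries, and y+LAT2 (Slc7a6) at 9.76 to 15.6 CPM in model and 9.64 to 16.5 CPM in control libraries. On the log2 scale the differences were 0.25 (SE 0.42) for Slc7a5 and 0.15 (SE 0.31) for Slc7a6, and without control 3 they were 0.57 and 0.46, against 0.27 for Slc7a7. Per length, Slc3a2 was at 1.501, 1.05 and 1.27 of the level of Slc7a7 in model 1, 2 and 3 and at 0.991, 1.07 and 0.529 in control 1, 2 and 3, where model 2 lay below control 2.

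**Figure D2:**
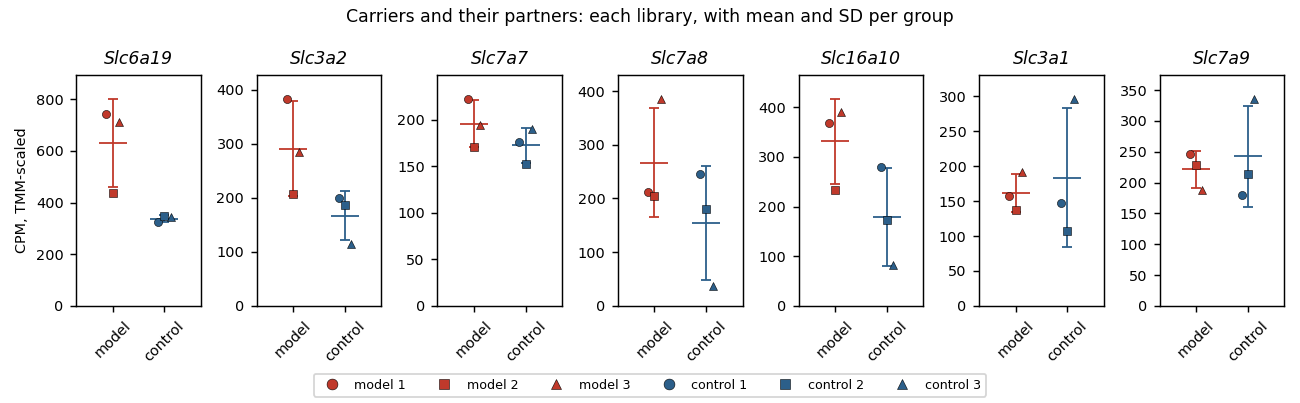
Levels of carriers and of the proteins they work with in each library (CPM, linear axes from 0; horizontal bars and whiskers are the mean and SD of 3 libraries per group, model left of control). With TMM scaling Slc6a19 and Slc3a2 separate the groups, whereas Slc7a7, Slc7a8, Slc16a10, Slc3a1 and Slc7a9 overlap. By library total alone Slc3a2 overlaps as well.

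Uniporters and other basolateral carriers did not pass the test either. Slc43a2, the LAT4 uniporter of branched-chain amino acids, measured 233, 342 and 255 CPM in the model and 456, 327 and 224 CPM in the control libraries (log2 fold change -0.28, SE 0.31). Its relative LAT3, Slc43a1, was at 1.38 to 2.91 CPM in model and 0.775 to 5.72 CPM in control libraries. Slc43a3, which belongs to the same family by sequence but carries nucleobases, was at 27.2 to 46.8 and 20.7 to 40.5 CPM. Slc38a2, the SNAT2 carrier that cells raise when amino acids are short, measured 118, 109 and 177 CPM in the model and 104, 112 and 202 CPM in the control libraries, with model 3 and control 3 the highest of their groups. Slc38a10, counted on the list below although its protein has been described in internal membranes, measured 126 ± 11.3 CPM in model and 127 ± 23.5 CPM in control tissue. The glutamine carrier SNAT3, Slc38a3, was at 4.16 CPM in control 3 and at 0.399 CPM or less elsewhere, which made its log2 fold change -3.16 (SE 1.41) with all libraries and -0.49 (SE 1.18) without control 3. The list of basolateral carriers and heavy chain has 10 genes, all tested, of which 0 passed. The 5 that were higher were Slc3a2 and the light chains Slc7a5, Slc7a6, Slc7a7 and Slc7a8, and the 5 that were lower were Slc43a1, Slc43a2, Slc38a2, Slc38a3 and Slc38a10. The median log2 fold change of the list was 0.07, and without control 3 it was 0.33 with 7 of 10 higher.

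**Figure D3:**
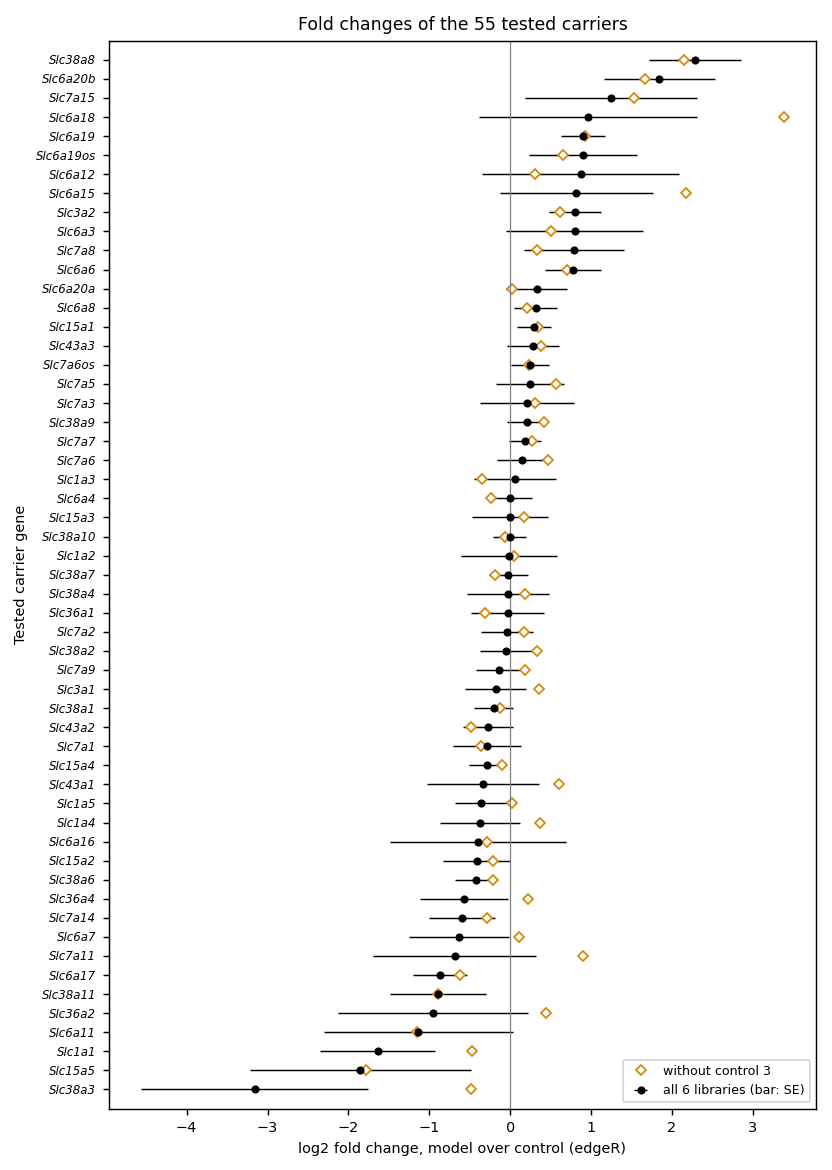
Log2 fold changes of model over control for the 55 tested carriers (points, with SE bars, for all 6 libraries; open diamonds without control 3). None passed the test over all genes, and leaving out control 3 moved Slc38a3, Slc6a18 and Slc7a11 by more than 1.5 on the log2 scale, while Slc6a19 stayed near 0.9.

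Carriers of lysosomes and other internal membranes, and the peptide carriers outside enterocytes, did not pass the test. The lysosomal arginine sensor gene Slc38a9, whose protein reports amino acids to the growth kinase mTORC1, was at 15.2 to 19.4 CPM in model and 12.2 to 19.7 CPM in control libraries. Slc38a7, a lysosomal glutamine exporter, measured 23.2 ± 2.55 CPM in model and 23.7 ± 6.12 CPM in control tissue. Slc15a4 and Slc15a3, histidine and peptide carriers of endolysosomes known from immune cells, differed by -0.29 (SE 0.23) and -0.01 (SE 0.47) on the log2 scale. The peptide carrier PEPT2 (Slc15a2), which acts at the cell surface and is best known from kidney, measured 11.5, 23.5 and 11.1 CPM in the model and 24.7, 11.4 and 25.3 CPM in the control libraries (log2 fold change -0.41, SE 0.41). Slc36a4, a lysosomal relative of PAT1, measured 3.53, 5.78 and 7.32 CPM in the model and 5.76, 3.85 and 15.2 CPM in the control libraries, and its log2 fold change of -0.58 (SE 0.54) was 0.22 (SE 0.41) without control 3. Slc7a14, a lysosomal member of family 7, averaged 1.89 ± 0.554 CPM in model and 2.86 ± 0.959 CPM in control tissue, a log2 fold change of -0.59 (SE 0.41). Among 8 listed genes, Slc36a1 included, 1 was higher and 7 were lower, with a median log2 fold change of -0.16, and 0 passed. Without control 3, 3 of 8 were higher and the median was -0.15.

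Carriers known from neurons and glia were mostly low. The serotonin carrier gene Slc6a4, which enterocytes also use, was the most abundant of them per length (15.2 CPM per kilobase in each group), at 42.4 ± 4.17 CPM in model and 42.5 ± 14.0 CPM in control tissue, and was lowest in control 3 with 26.5 CPM. Slc6a17, a carrier of neutral amino acids in synaptic vesicles, measured 2.56, 3.88 and 4.42 CPM in the model and 5.76, 5.51 and 8.53 CPM in the control libraries. Each model library lay below each control library, with a log2 fold change of -0.86 (SE 0.33, edgeR adjusted p = 0.851) and of -0.62 (SE 0.35) without control 3. For 8 of 9 markers of enteric neurons and glia the fold change was below 0, and their summed level was of 23.5 to 37.9 CPM in model and 32.2 to 46.4 CPM in control libraries. Smooth muscle markers were below 0 as well, 8 of 8 with a median log2 fold change of -0.73 (-0.54 without control 3) and a summed level of 945 to 1220 CPM in model and 1249 to 2110 CPM in control libraries. The part of either in the value of Slc6a17 was not tested. Slc1a3, the glutamate carrier of glia, was at 10.5 to 15.4 CPM in the model libraries, 3.87 CPM in control 3 and 15.4 and 17.1 CPM in the other controls. Slc6a7, a proline carrier of the brain, was at 12.3 CPM in model 3 and 20.6 CPM in control 3 against 3.91 to 9.16 CPM elsewhere. Of 11 tested genes of this kind 4 were higher and 7 lower, with a median log2 fold change of -0.02.

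Carriers that cells induce under amino acid shortage or oxidative stress gave no common direction when all libraries were used. The cystine and glutamate exchanger gene Slc7a11 was at 8.49 CPM in model 3 and 14.1 CPM in control 3 and at 1.25 to 2.38 CPM elsewhere, the same pair of libraries that held B cell transcripts, whose part was not tested. Slc7a1, the cationic amino acid carrier CAT1, measured 29.9, 106 and 77.0 CPM in the model and 100, 84.2 and 74.7 CPM in the control libraries, with model 1 alone below the rest. Its relative CAT2, Slc7a2, differed by -0.04 (SE 0.32) on the log2 scale. Of 8 genes on this list, Slc3a2 and Slc38a2 included, 3 were higher and 5 lower with a median of -0.17. Without control 3, 7 of 8 were higher with a median of 0.35, against 53.1% of all genes. Without control 3 and model 3 it was 5 of 8, with a median of 0.10. The direction of the list thus rested on control 3.

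Slc38a8, a sodium-coupled carrier of glutamine and other amino acids, had the smallest p of all carriers but few reads. It had 22, 56 and 72 counts in model 1, 2 and 3 and 13, 13 and 9 counts in control 1, 2 and 3, or 0.762, 1.27 and 2.05 CPM against 0.271, 0.347 and 0.214 CPM. The groups did not overlap, and the log2 fold change was 2.29 (SE 0.57, edgeR adjusted p = 0.851), 2.15 (SE 0.68) without control 3 and 1.71 without control 3 and model 3. SNAT1 (Slc38a1) measured 73.3 ± 19.8 CPM in model and 84.5 ± 9.78 CPM in control tissue. Among genes on none of the lists by role, Slc7a6os was taken in by its symbol only, since it lies on the strand opposite Slc7a6 and encodes no carrier. It had 43.2, 27.2 and 27.0 CPM in the model and 28.1, 27.9 and 25.9 CPM in the control libraries.

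At the low end of the rule, Slc6a16 and Slc1a7 had 74 counts over the 6 libraries, and just below it Slc38a5 had 52 and Slc6a5 had 50. Slc1a7 passed the rule but not the filter on low counts. Of the rows left out, Slc7a10 had 42 counts, all of them in control 3, and Slc38a5 had 10, 5 and 31 counts in the model and 2, 0 and 4 counts in the control libraries.

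Control 3 was the highest library for 20 and the lowest for 15 of the 55 tested carriers, together 63.6%, against 54.3% of all genes tested. For model 1 the share was 47.3% of carriers against 59.4% of all genes. In control 3, 9 carriers were at 2 times the mean of the other 5 libraries or more (16.4%, against 10.8% of all genes) and 9 at 0.5 times or less (16.4%, against 9.48%). Slc38a3 stood at 20.8 times, Slc1a1 at 5.65 times, Slc36a2 at 4.86 times and Slc7a11 at 4.58 times that mean. At the low end Slc7a8 stood at 0.153, Slc38a8 at 0.227 and Slc1a3 at 0.275 of it, and Slc6a12, with few counts elsewhere, had 0 counts in control 3. These are values of 1 library and carry no test.

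**Figure D4:**
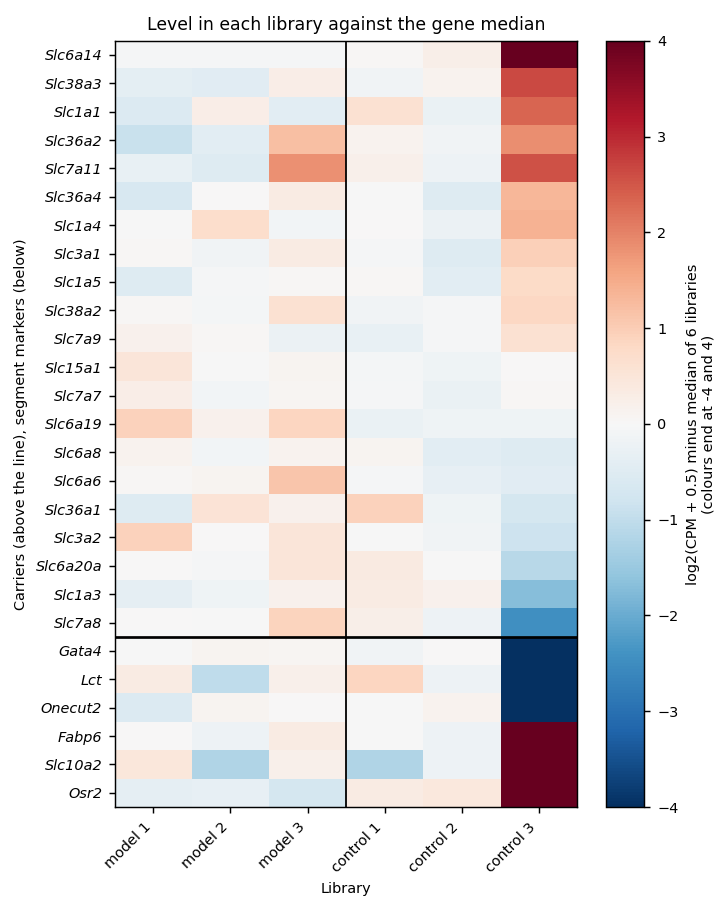
Level of 21 carriers, and of 6 segment markers below the line, in each library, as log2(CPM + 0.5) minus the gene's median over the 6 libraries (red higher, blue lower, colours end at -4 and 4; genes chosen after their values were seen). Control 3 departs from the others for Slc6a14, Slc38a3, Slc1a1 and Slc7a8 as it does for the distal markers Fabp6, Slc10a2 and Osr2 and the proximal markers Gata4, Lct and Onecut2.

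Over all 55 tested carriers, 23 were higher and 32 lower in the model group. Their median log2 fold change was -0.03 against -0.02 for all genes. This balance was not stable: 29 were higher with RLE scaling, with DESeq2 and with limma-voom, 30 when libraries were scaled to the epithelial genes, 18 with library size alone and 37 of 56 without control 3. Scaling by library size alone moved the median of all genes to -0.21, and the carriers' median was then -0.19. Without control 3, at an unadjusted p under 0.05 stood 3 carriers, Slc38a8, Slc6a19 and Slc6a18, or 5.36% against a background of 2.34% of genes, and without control 3 and model 3 it was 0 carriers against 1.86% of genes.

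Of 9 genes whose products work with the carriers 7 were higher, against 48.2% of all genes, and 0 passed. Without control 3 it was 6 of 9, against 53.1% of all genes, and their median log2 fold change went from 0.32 to 0.15. Atp1b1, a subunit gene of the sodium pump that drives sodium-coupled uptake, measured 1486 ± 78.5 CPM in model and 1181 ± 292 CPM in control tissue. Aminopeptidase N, Anpep, which frees amino acids at the brush border beside B0AT1, was at 1973 to 2496 CPM in the model libraries and at 8570 CPM in control 3, 3461 CPM in control 1 and 2157 CPM in control 2. Among 16 peptidases 8 were higher and 0 passed. Without control 3, 12 of 16 were higher, and their median log2 fold change went from 0.005 to 0.27. Mep1a and Xpnpep2, those with the smallest p, were at 842 and 287 CPM in control 3 against 47.9 and 31.3 CPM or less elsewhere, and their log2 fold changes of -3.20 (SE 1.32) and -2.43 (SE 0.995) were -0.12 and -0.27 without it. For the abundant Mep1b and Enpep the log2 fold changes were -0.06 (SE 0.30) and -0.55 (SE 0.56).

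Outside these 8 families, 10 of 14 listed transporters were higher, against 48.2% of all genes, and 0 passed. Without control 3 it was 11 of 14, against 53.1% of all genes, and their median log2 fold change went from 0.21 to 0.15. Slc16a10, the basolateral uniporter TAT1 of aromatic amino acids, measured 369, 234 and 390 CPM in the model and 280, 172 and 83.3 CPM in the control libraries, with overlap between model 2 and control 1 (log2 fold change 0.89, SE 0.44, and 0.56 without control 3). The mitochondrial ornithine carrier gene Slc25a15 differed by 0.61 (SE 0.39) on the log2 scale. The 2 with the smallest p are known for other substrates. Slc22a5, the carnitine carrier OCTN2, measured 226, 220 and 228 CPM in the model and 115, 162 and 99.8 CPM in the control libraries (log2 fold change 0.84, SE 0.23), and Slc47a1, an exporter of organic cations, measured 72.0, 50.4 and 100.3 CPM in the model and 40.4, 26.6 and 13.9 CPM in the control libraries (log2 fold change 1.46, SE 0.42). The choline carrier gene Slc44a1 was lower in each model library, with a log2 fold change of -0.35 (SE 0.23). All 3 had an edgeR adjusted p of 0.851.

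The response to amino acid shortage runs through the transcription factor ATF4. Atf4 itself measured 178, 120 and 126 CPM in the model and 124, 140 and 119 CPM in the control libraries. Of 22 genes of the response 15 were higher, with a median log2 fold change of 0.12, and 0 passed. Among all genes tested 48.2% were higher. Without control 3, 19 of 22 were higher with a median of 0.24, against 53.1% of all genes. Without control 3 and model 3 it was again 19 of 22, with a median of 0.25. Trib3, a pseudokinase induced by ATF4, measured 5.43, 4.35 and 6.78 CPM in the model and 2.94, 1.95 and 2.45 CPM in the control libraries without overlap (log2 fold change 1.17, SE 0.32, edgeR adjusted p = 0.851). Cebpb had a log2 fold change of 0.80 (SE 0.40), Ddit4 one of 0.81 (SE 0.48) and Cth one of 0.57 (SE 0.41), each with overlapping groups. The kinase mTORC1 reads amino acid supply, and of 24 genes of that pathway 19 were higher, with a median of 0.14, and 0 passed. Without control 3, 18 of 24 were higher, against 53.1% of all genes. Without control 3 and model 3 it was 14 of 24. Fnip1 and Flcn encode partners that act on the Rag GTPases. Fnip1 measured 48.4, 64.9 and 127 CPM in the model and 39.4, 39.5 and 44.0 CPM in the control libraries (log2 fold change 0.96, SE 0.35). Flcn measured 37.0, 40.4 and 51.1 CPM in the model and 29.95, 26.1 and 35.2 CPM in the control libraries (0.49, SE 0.21). For both, each model library lay above each control library with TMM scaling, as for 4.73% of all genes tested. Scaled by library total alone, without TMM, model 1 lay below control 3 for both genes. Rragd, a Rag GTPase, was at 236, 177 and 247 CPM in the model and 168, 161 and 17.5 CPM in the control libraries. Its value in control 3 lay far below the rest. For Sesn1 and Castor2, of the same pathway, the log2 fold changes were 0.43 (SE 0.45) and 0.35 (SE 0.25).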

How the data were processed

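Frozen small intestine of mice gave poly-A RNA for 3 model and 3 control libraries, per the labels' protocols. The submitters' processing notes name FastQC, Trimmomatic, STAR, featureCounts and the build GRCm39. What versions, settings, annotation and strand were used is not given in the sources used here, so overlapping, antisense and near-identical genes are uncertain. As deposited by the authors, the values are raw read counts per gene symbol in 1 table, with 0 columns unmatched to a sample.

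Genes were kept by filterByExpr (15904 of 33017), scaled by TMM and tested with edgeR 4.0.16 in R 4.3.3 (quasi-likelihood F test, robust, group as the only term, Benjamini-Hochberg over all genes, called at an adjusted p under 0.05). Each SE was taken as the size of the log2 fold change divided by the root of its F value. Genes varied between libraries of a group with a biological coefficient of 40.7%. The script was tested on simulated data. DESeq2 1.42.0, limma-voom (limma 3.58.1), other scalings and filters, a replicate block and leaving out libraries were alternatives. No pair of libraries of a group was a duplicate (chi-square of 115 to 490 per degree of freedom).

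Levels per kilobase use the summed exon length of GENCODE M21 (GRCm38, all 57 symbols matched), a build other than that of the counts, and no coordinates besides those of printed RefSeq sequences are given. Members and lists were chosen with earlier results of these data known. Named carriers are the 8 with the smallest p, the 10 most abundant, those whose groups do not overlap and a fixed list, and of other lists the 3 most abundant genes and the 2 with the smallest p (1 gene is not reported here). Others, such as Slc6a18, Slc6a7 and Slc7a10, were named after their values were seen.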

Additional observations from a re-analysis of the deposited data

How the results depend on the processing

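Carriers called stayed at 0 under every alternative run, and genes called at 0 under all but DESeq2, which called 25. The number of carriers higher in the model group was 23 of 55, 15 of 34 with at least 5 CPM in 3 libraries, and 26 to 37 when 1 library was left out, the highest without control 3. The carriers' median log2 fold change ranged from -0.06 to 0.22 over the fits without 1 library. It moved by less than the within-group SD of the libraries' median deviations (0.26). Control 3 itself widens that SD with a deviation of 0.37, so the SD cannot judge its removal. Of 30 named carriers, 13 kept their sign in all alternatives, Slc6a19, Slc3a2, Slc6a6, Slc38a8, Slc6a17, Slc6a20b and Slc15a1 among them. For the other 17 a sign turned, and the cause was not tested. Without control 3 and model 3 together, chosen after the data were seen, it turned for Slc7a9 (0.27), Slc6a20a (-0.18), Slc7a8 (-0.040), Slc15a3 (0.19), Slc3a1 (0.20), Slc43a1 (0.39) and Slc38a2 (0.069). With library size alone, which moved the median of all genes to -0.21 and these genes by about as much, it turned for Slc7a7 (-0.036), Slc7a6 (-0.050) and Slc38a9 (-0.018). Slc15a3 was 0.024 with RLE, 0.083 with epithelial scaling, 0.024 with DESeq2 and 0.026 with limma-voom. Slc36a1 was 0.035 with epithelial scaling, 0.068 with limma-voom and 0.10 with the replicate block, Slc43a1 was 0.025 with limma-voom, and Slc7a2 was 0.0052 with epithelial scaling. Over the fits without 1 library the ranges were -0.48 to 0.014 for Slc43a2, -0.30 to 0.19 for Slc7a9, -0.41 to 0.28 for Slc15a3, -0.44 to 0.36 for Slc3a1, -0.58 to 0.025 for Slc1a5, -0.31 to 0.57 for Slc36a1, -0.096 to 0.58 for Slc7a5, -0.77 to 0.60 for Slc43a1, -0.69 to 0.081 for Slc7a1, -0.29 to 0.17 for Slc7a2, -2.10 to 0.90 for Slc7a11 and -0.29 to 0.33 for Slc38a2. With the replicate block 0 carriers and 0 genes were called, 27 of 55 carriers were higher and their median was -0.02. The labels do not say whether the numbers pair the libraries. Deviations of same-numbered libraries correlated at -0.15, -0.27 and 0.31 across genes, and those of other pairs at -0.35 to 0.48. With 3 libraries a group that differ in content, these values cannot settle it. Carriers under 1 CPM rest on few counts, which limits their precision.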
